A study of Homo sapiens with 4 samples.

Results

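The 10 genes described here are the bone morphogenetic protein (BMP) receptors BMPR1A, BMPR1B, BMPR2 and ACVR1, the inhibitor-of-DNA-binding genes ID1, ID2, ID3 and ID4, and the homeobox genes MSX1 and MSX2. They were chosen by name, for their place in the BMP pathway, from the 17894 genes listed in each of 4 RNA-seq libraries. The libraries came from H1 human embryonic stem cells, an established line, on day 2 of hematopoietic differentiation on mAGM-S3 cells, a mouse stromal line. Human cells were taken by sorting for TRA-1-85, a human surface antigen, before RNA was made. One group was wild-type H1 without added factor (the control, 1 library), another was wild-type H1 given R-spondin2 at 20 ng/mL for the first day (1 library), and the third was LGR4-/- H1 without added factor, with 1 library from each of 2 clones. R-spondins are secreted proteins that strengthen WNT signalling, and the LGR4 protein is among their receptors. Each LGR4-/- library is a single clone, so clonal differences and the genotype cannot be told apart, and neither wild-type group has a second library.

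BMP ligands bring together type 1 receptors (BMPR1A, BMPR1B, ACVR1) and type 2 receptors (BMPR2 among them), and the type 2 kinase activates the type 1 kinase. The type 1 receptor phosphorylates SMAD1, SMAD5 and SMAD9, which enter the nucleus with SMAD4 and act on target genes. ID genes are the classical early targets: their proteins lack a DNA-binding region and hold basic helix-loop-helix (bHLH) factors away from DNA. MSX1 and MSX2 encode homeodomain repressors that BMP also raises in many embryonic tissues, including posterior and lateral mesoderm. In differentiating embryonic stem cells, BMP works with WNT and activin or nodal signals in forming the primitive streak and its mesoderm.

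Levels were given by the authors as FPKM, which are fragment numbers scaled for transcript length and for the mapped fragments of the library, so levels of different genes can be compared per length. Differences are in log2(FPKM + 1). A gene passed the filter at a mean of at least 1 FPKM over the 4 libraries, which 12697 genes and 9 of the 10 members did. The mean is over all libraries, so a gene low in the clones could pass through its wild-type levels alone. A difference of at least 1 in size, which is 2-fold, was the threshold for a call. The low FPKM values fitted whole reads best at a depth of between 8700000 and 8920000 reads per library. With these depths and the shortest listed transcript, the reads behind each level could be estimated, and 95% exact Clopper-Pearson intervals of log2 read ratios are given; they cover counting error only and not the spread between cultures. LGR4 itself was at 21.77 FPKM in the control, 24.26 with R-spondin2, 7.4 in clone 1 and 13.95 in clone 2. Both clones were lower than both wild-type libraries, but the FPKM is over the whole transcript and the place of the edit is not in the labels, so it checks the genotype only in part. The libraries hold many cells, so fewer cells of a type and less RNA per cell cannot be told apart.

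The 4 members at the extremes of the data are shown with the 250 bases before their RefSeq start (build GRCh38.p14), because MSX1 and MSX2 differed most between genotypes, ID1 differed most with R-spondin2, and ID3 differed little. The windows are MSX1 at chr4:4859415-4859664 on the plus strand, MSX2 at chr5:174724332-174724581 on the plus strand, ID1 at chr20:31605039-31605288 on the plus strand and ID3 at chr1:23559502-23559751 on the minus strand. They lie upstream of the first exon and are not coordinates of the authors' files, which used hg19. Capitals mark CCAAT or TATAAA on either strand.
MSX1: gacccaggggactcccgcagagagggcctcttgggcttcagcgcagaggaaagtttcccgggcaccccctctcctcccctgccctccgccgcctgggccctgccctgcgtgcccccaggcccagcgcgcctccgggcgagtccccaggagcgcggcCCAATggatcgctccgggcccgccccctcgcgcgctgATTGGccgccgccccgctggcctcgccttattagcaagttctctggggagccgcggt
MSX2: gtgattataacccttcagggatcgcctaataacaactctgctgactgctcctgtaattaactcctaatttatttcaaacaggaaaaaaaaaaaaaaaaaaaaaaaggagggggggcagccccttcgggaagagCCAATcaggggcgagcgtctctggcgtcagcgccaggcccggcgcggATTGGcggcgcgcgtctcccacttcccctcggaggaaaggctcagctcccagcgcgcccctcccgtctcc
ID1: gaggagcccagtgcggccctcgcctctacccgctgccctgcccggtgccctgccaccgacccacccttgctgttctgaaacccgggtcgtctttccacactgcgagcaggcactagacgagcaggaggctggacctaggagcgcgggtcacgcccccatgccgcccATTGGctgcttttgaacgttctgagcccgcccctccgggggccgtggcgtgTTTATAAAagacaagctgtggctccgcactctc
ID3: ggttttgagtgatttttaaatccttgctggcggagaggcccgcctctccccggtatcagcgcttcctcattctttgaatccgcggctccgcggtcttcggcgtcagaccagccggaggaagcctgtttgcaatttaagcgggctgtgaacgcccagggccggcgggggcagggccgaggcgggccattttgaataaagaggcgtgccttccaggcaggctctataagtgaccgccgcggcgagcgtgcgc

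The MSX1 and MSX2 windows each held CCAAT at 2 places, starting 94 and 57 bases before the start in MSX1 and 117 and 70 bases before it in MSX2. Of all 35116 RefSeq promoter windows of that length, 32% held CCAAT and 9.53% held it at 2 or more places. Repeated CCAAT was not particular to the MSX genes among the members. ID2, not shown, held it at 3 places, 172, 122 and 78 bases before its start. The ID1 window held CCAAT at 1 place, 84 bases before the start, and the TATA-box letters TATAAA in 2 overlapping matches, 33 and 31 bases before the start, against 10.7% of all windows with TATAAA. ID3 held neither. The SMAD-binding letters GGCGCC were in none of the 4 windows and in 16.4% of all windows. CAGAC, another SMAD-binding sequence, was among these 4 in the ID3 window only, 147 bases before the start, and in 38% of all windows. The TCF/LEF letters were CTTTG followed by AA, AT, TA or TT, searched together on both strands. Among these 4 they were also in the ID3 window only, 179 bases before the start, and in 12% of all windows. Of the members not shown, BMPR1B, BMPR2, ACVR1 and ID4 held CAGAC, and BMPR1B held the TCF/LEF letters. The TATA-box letters were not particular to ID1 among the members. BMPR1A held them 28 bases before its start and ID4 held them 29 bases before its start. The first SMAD-binding letters named above were in the BMPR2 window, 147 bases before its start. They were also in a window of ACVR1, 190 bases before that start. The motifs are descriptions of the letters named here, and they were chosen after the expression values were known.

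Among the members, the MSX genes were the ones that stood lowest against the control in the LGR4-/- clones. MSX1 was at 14.0% of its control level in clone 1 and 33.4% in clone 2, and MSX2 at 22.0% and 53.4%. The summed receptor level and the summed ID level were close to the control in both clones. These sums rest mostly on BMPR1A and on ID1 and ID3, and not every member followed them. BMPR2 was at 58.7% of the control in clone 1 and 75.0% in clone 2, and ID2 at 67.3% and 86.3%. With R-spondin2 the members split, with both MSX genes and ACVR1 above the control and ID1 well below it.

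**Figure D1:**
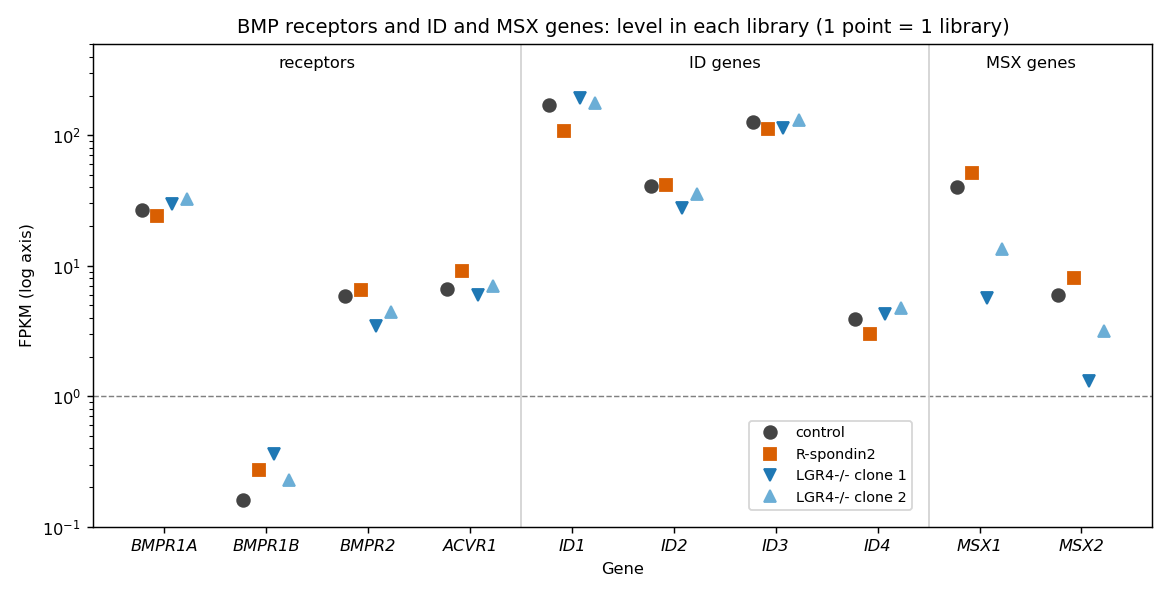
FPKM on a log axis (vertical) of each of the 10 genes (horizontal), with 1 point for each library and a dashed line at 1 FPKM. The blue triangles of the 2 LGR4-/- clones lie under both wild-type points for MSX1 and MSX2, the R-spondin2 point is the lowest of the 4 for ID1, and all 4 BMPR1B points lie between 0.16 and 0.36 FPKM.

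Of the type 1 receptors, BMPR1A was the most abundant. It was at 26.87 FPKM in the control, 24.21 with R-spondin2, 29.73 in clone 1 and 32.34 in clone 2. Both clones lay above both wild-type libraries, as in 34.4% of all genes tested. The gap was small: the mean of the clones was higher than the control by 0.20 on the log2 scale (limma SE 0.10, adjusted p = 0.381). BMPR1A made up 67.9% of the summed FPKM of the 4 receptors in the control, 60.3% with R-spondin2, 75.2% in clone 1 and 73.4% in clone 2. Its listed transcript of 11255 bases is far longer than its coding part of 1596 bases, so the intervals were taken with the coding length. The read ratio to the control was then -0.15 with R-spondin2 (-0.37 to 0.06), 0.14 in clone 1 (-0.06 to 0.35) and 0.27 in clone 2 (0.07 to 0.47), all as log2. Only the clone 2 ratio was outside counting error.

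ACVR1, the type 1 receptor also called ALK2, was at 6.64 FPKM in the control, 9.15 with R-spondin2, 6.02 in clone 1 and 7.05 in clone 2. The R-spondin2 library was the highest of the 4, and the clones lay on either side of the control. With R-spondin2 the difference was 0.41 on the log2 scale, above that of 97.9% of all genes tested, and the log2 read ratio of 0.47 had a counting interval of 0.17 to 0.76, from 228 and 169 estimated reads. In the mean of the clones it was -0.02 (limma SE 0.15, adjusted p = 0.957).

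BMPR2, the type 2 receptor that prefers BMP ligands, was at 5.88 FPKM in the control, 6.55 with R-spondin2, 3.45 in clone 1 and 4.41 in clone 2. Both clones lay below both wild-type libraries, as in 27.6% of all genes tested. Clone 1 was at 58.7% and clone 2 at 75.0% of the control. The log2 read ratios were -0.77 in clone 1 (-0.96 to -0.58) and -0.42 in clone 2 (-0.60 to -0.24). The mean difference of -0.49 (limma SE 0.18) had an unadjusted p of 0.0429 and an adjusted p of 0.251 by limma, so it did not pass. Over the alternative limma fits the adjusted p ran from 0.0436 to 0.457. The log2 read ratio of clone 2 to clone 1 was 0.35 (0.15 to 0.56), but the listed transcript of BMPR2, at 11461 bases, is far longer than its coding part of 3114 bases, and with the coding length that interval was -0.05 to 0.75 and held 0.

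BMPR1B, the type 1 receptor best known in cartilage and limb, was near the limit of detection. It was listed at 0.16 FPKM in the control, 0.27 with R-spondin2, 0.36 in clone 1 and 0.23 in clone 2. These are about 2, 4, 5 and 3 reads on its shortest transcript, so no difference could be detected at this depth and no fold is given. The receptor sum was 39.55 FPKM in the control, 40.18 with R-spondin2, 39.56 in clone 1 and 44.03 in clone 2.

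The ID genes were the most abundant members. ID1 was at 170.06 FPKM in the control, 108.2 with R-spondin2, 193.31 in clone 1 and 176.22 in clone 2. The R-spondin2 library stood apart from the other 3, at 63.6% of the control, while the clones lay just above the control. The R-spondin2 difference was -0.65 on the log2 scale, the 124th lowest of 12697 genes, and 0.969% of genes were lower. The log2 read ratio of -0.65 (-0.77 to -0.53) rested on 936 and 1508 estimated reads. In the clones the ratios were 0.18 (0.08 to 0.29) and 0.05 (-0.05 to 0.15), and the mean difference was 0.12 (limma SE 0.08, adjusted p = 0.518). So ID1 had the order clone 1, clone 2, control, R-spondin2 from high to low, which 17.1% of all genes tested shared.

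ID3, the next most abundant, was at 125.59 FPKM in the control, 111.91 with R-spondin2, 114.17 in clone 1 and 129.68 in clone 2. The 4 levels lay close together and the clones lay on either side of the control. The R-spondin2 difference was -0.16, and the mean difference of the clones was -0.05 (limma SE 0.10, adjusted p = 0.852). The ratio of ID1 to ID3 in FPKM was 1.35 in the control, 0.967 with R-spondin2, 1.69 in clone 1 and 1.36 in clone 2. ID1 was thus the most abundant ID gene in every library except that with R-spondin2, where ID3 was at 111.91 and ID1 at 108.2 FPKM, a gap that was not tested.

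ID2 was at 41.07 FPKM in the control, 41.76 with R-spondin2, 27.64 in clone 1 and 35.46 in clone 2. The wild-type libraries were alike and both clones were below them, clone 1 more so. Of all genes tested, 27.6% had both clones below both wild-type libraries. The log2 read ratios were -0.57 (-0.78 to -0.37) and -0.21 (-0.40 to -0.02), and the mean difference of -0.38 (limma SE 0.16, adjusted p = 0.300) did not pass. The direction of ID2 in the clones was that of the MSX genes, at a smaller size, while its R-spondin2 difference was 0.02.

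ID4 was the least abundant of the family, at 3.93 FPKM in the control, 3.01 with R-spondin2, 4.3 in clone 1 and 4.77 in clone 2. The order was that of BMPR1A, with R-spondin2 lowest and clone 2 highest. With 61 to 99 estimated reads, all 3 intervals of its ratio to the control held 0, so no difference was detectable at this depth. Summed over the 4 ID genes, the level was 340.65 FPKM in the control, 264.88 with R-spondin2, 339.42 in clone 1 and 346.13 in clone 2. ID1 alone made up 49.9% of that sum in the control, 40.8% with R-spondin2, 57.0% in clone 1 and 50.9% in clone 2.

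MSX1 was at 40.42 FPKM in the control, 51.75 with R-spondin2, 5.65 in clone 1 and 13.51 in clone 2. Both clones lay below both wild-type libraries, as in 27.6% of all genes tested, and their mean was 9.58 ± 5.56 FPKM (SD, n = 2). The control was 7.15 times clone 1 and 2.99 times clone 2. The differences of -2.64 in clone 1 and -1.51 in clone 2 were the 7th and 28th lowest of 12697 genes, and their log2 read ratios were -2.83 (-3.15 to -2.53) and -1.58 (-1.80 to -1.36). The mean difference of -2.08 (limma SE 0.45) had an unadjusted p of 0.00530 and an adjusted p of 0.107, with a range of 0.0122 to 0.424 over the alternative limma fits. It passed 0.05 in 2 of these, with a filter of 5 FPKM (adjusted p = 0.0292, limma) and with both wild-type libraries set against both clones (adjusted p = 0.0122, limma). The last of these puts the R-spondin2 library with the control as if both were 1 group.

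MSX2, its close relative, was at 5.92 FPKM in the control, 8.09 with R-spondin2, 1.3 in clone 1 and 3.16 in clone 2. Again both clones lay below both wild-type libraries, as in 27.6% of all genes tested, and their mean was 2.23 ± 1.32 FPKM (SD, n = 2). The differences were -1.59 in clone 1 and -0.73 in clone 2, and the log2 read ratios were -2.18 (-2.85 to -1.56) and -0.91 (-1.38 to -0.46), from 26 and 62 reads against 118 in the control. The mean difference of -1.16 (limma SE 0.36) had an adjusted p of 0.191 by limma, with a range of 0.0263 to 0.487 over the alternative limma fits. It passed only in the fit that puts the R-spondin2 library with the control, and MSX2 was not among the genes past the filter of 5 FPKM.

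With R-spondin2 the MSX genes were modestly above the control. The difference was 0.35 for MSX1, with a log2 read ratio of 0.36 (0.21 to 0.50), and 0.39 for MSX2, with 0.46 (0.10 to 0.81). They were above 96.6% and 97.6% of all genes tested. The MSX genes thus shared the order R-spondin2, control, clone 2, clone 1 from high to low. BMPR2 and ID2 had this order too, which makes 4 of 9 members against 13.9% of all genes tested. For BMPR2 and ID2 the R-spondin2 library was above the control only within counting error. Their log2 read ratios were 0.16 (-0.006 to 0.32) and 0.02 (-0.16 to 0.21). The ratio of MSX1 to MSX2 was 6.83 in the control, 6.40 with R-spondin2, 4.35 in clone 1 and 4.28 in clone 2, so MSX1 was further below the control than MSX2 was in both clones, by ratios whose counting intervals overlapped. The sum of the MSX genes was 46.34, 59.84, 6.95 and 16.67 FPKM in the control, R-spondin2, clone 1 and clone 2 libraries.

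**Figure D2:**
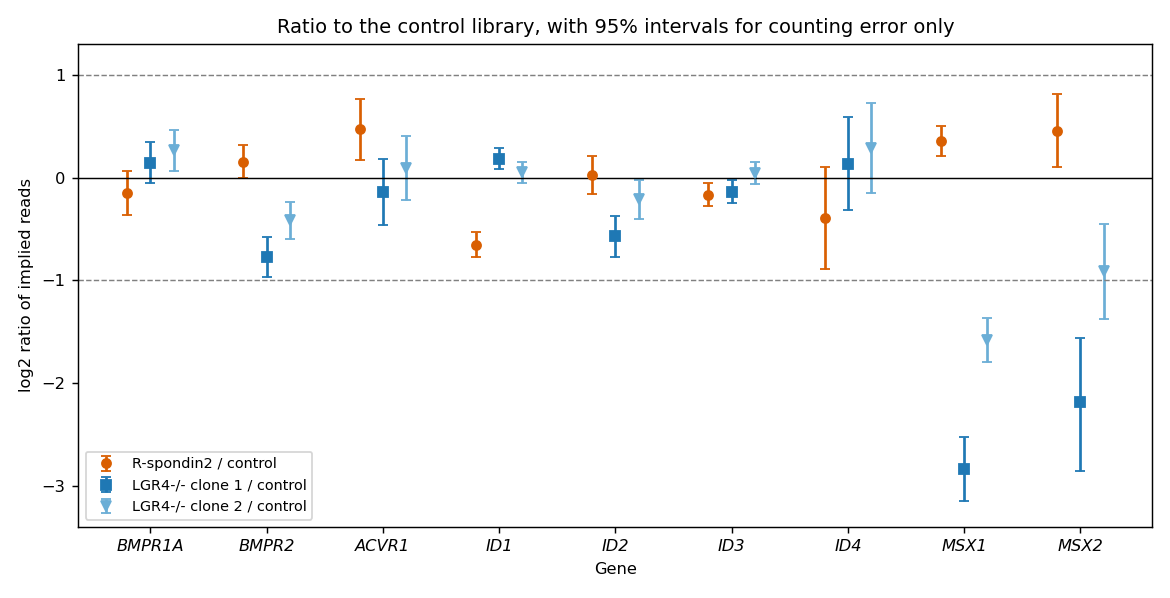
Log2 ratio of estimated reads to the control library (vertical) for the 9 genes past the filter (horizontal), with bars for the 95% interval of counting error and dashed lines at 2-fold. MSX1 and MSX2 in the clones lie far below 0 with clone 1 below clone 2, the R-spondin2 point of ID1 lies at -0.65, and the BMPR2 bars of both clones lie below 0.

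The intervals depend on the transcript length used. With the shorter coding length, the intervals for BMPR2 and MSX1 in both clones, MSX2 in clone 2, ID1 with R-spondin2 and in clone 1, and ACVR1 with R-spondin2 still left out 0. Those for MSX2 with R-spondin2 (-0.15 to 1.06), ID2 in clone 2 (-0.56 to 0.15), and ID3 with R-spondin2 (-0.38 to 0.05) and in clone 1 (-0.35 to 0.07) then held it. So did the intervals of clone 2 to clone 1 for BMPR2, ID1 (-0.28 to 0.02), ID2 (-0.03 to 0.76) and ID3 (-0.02 to 0.39). MSX2 in clone 1 had too few reads for an interval with the coding length. For BMPR1A the listed transcript would give narrower intervals that leave out 0, at -0.23 to -0.07 with R-spondin2, 0.07 to 0.22 in clone 1 and 0.19 to 0.34 in clone 2.

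Counted at 2-fold, no member differed between R-spondin2 and control, in either direction, where 0.0473% of all genes were higher and 0.173% lower. In both clones MSX1 was lower than the control by at least 2-fold, which is 1 of 9 members against 1.08% of all genes, and no member was higher, against 0.236%. Clone 1 alone had 2 members lower, MSX1 and MSX2, against 2.26% of all genes, and clone 2 alone had MSX1, against 1.17%. Neither clone alone had a member higher, against 1.26% of all genes in clone 1 and 0.331% in clone 2. At 1.5-fold, ID1 was the only member called with R-spondin2, as lower, against 1.46% of all genes, and MSX2 joined MSX1 among those lower in both clones, against 3.09%. By limma no gene of the 12697 passed an adjusted p of 0.05 for LGR4-/- against control (smallest 0.0732), and 2342 genes, or 18.4%, had an unadjusted p under 0.05, among them MSX1, MSX2 and BMPR2. No test was made for R-spondin2, with 1 library on each side. The R-spondin2 and LGR4-/- comparisons share the control library, so a high or low value in it would move both.

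**Figure D3:**
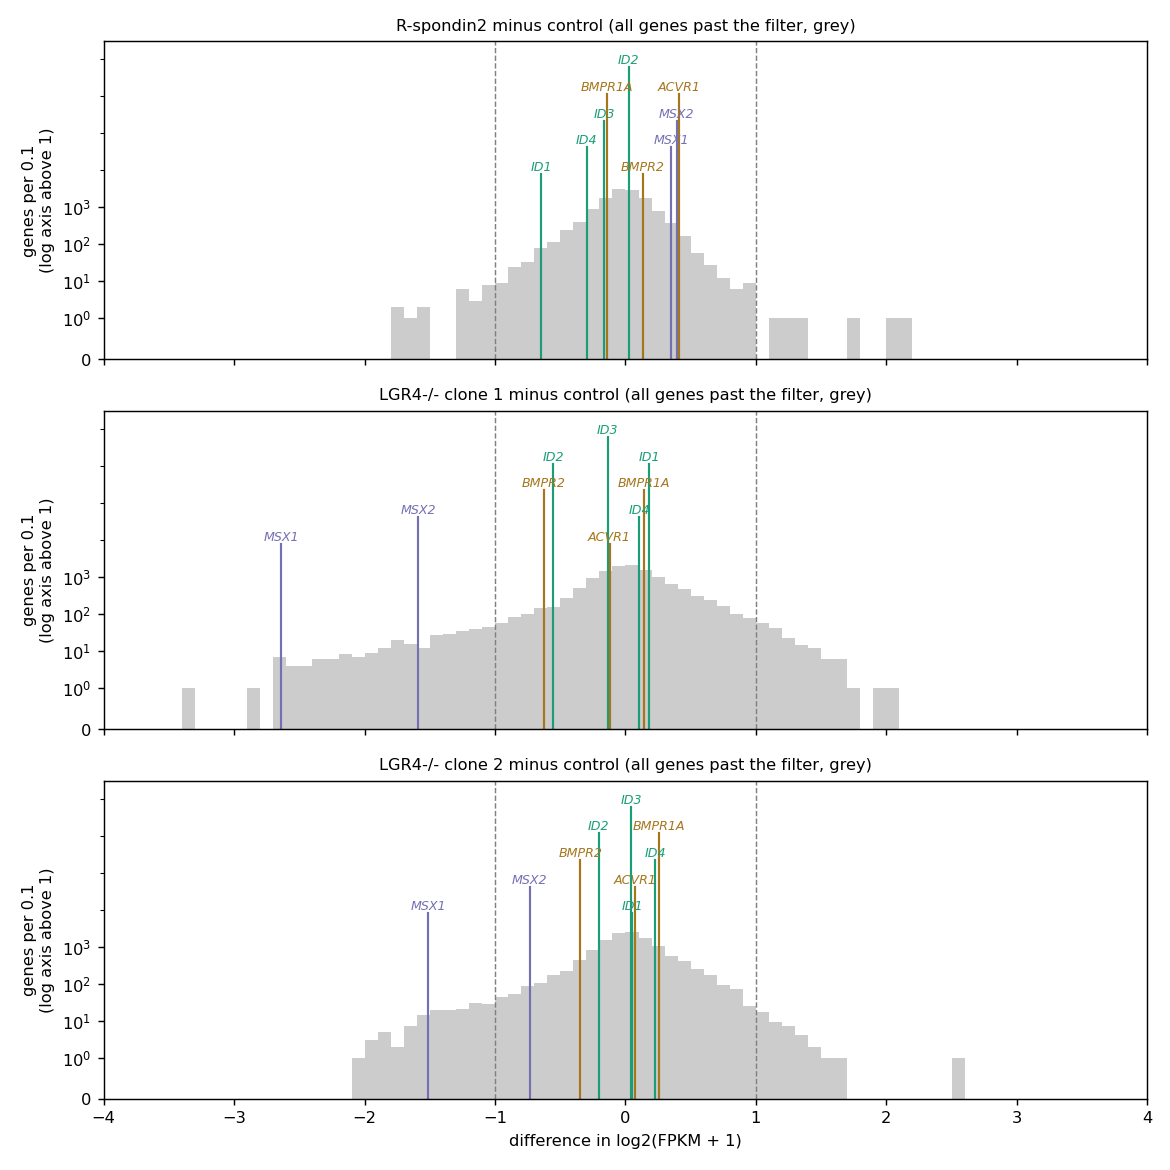
Number of genes per 0.1 of difference in log2(FPKM + 1) (grey, log axis above 1) for R-spondin2, clone 1 and clone 2 against the control, with a line for each of the 9 genes past the filter (receptors brown, ID genes green, MSX genes purple) and dashed lines at 2-fold. MSX1 lies in the far left tail in both clones at -2.64 and -1.51, while the ID genes and receptors lie between -0.63 and 0.26.

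The median over the 9 members was 0.02 with R-spondin2 and -0.05 in the mean of the clones, against -0.01 and 0.02 over all genes tested. The median hides the split within the group. The medians by kind with R-spondin2 were 0.13 for 3 receptors, -0.23 for 4 ID genes and 0.37 for 2 MSX genes, and in the mean of the clones -0.02, 0.04 and -1.62.

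Clone 2 was above clone 1 in 8 of 9 members, ID1 being the exception, against 6243 of all 12697 genes tested. With the coding length, the intervals between the clones held 0 for BMPR1A, BMPR2, ACVR1 and all ID genes. The median of clone 2 minus clone 1 was 0.20 over the members, against -0.0027 over all genes. MSX1 was 2.39 times and MSX2 2.43 times as high in clone 2 as in clone 1, and MSX1 was called at 2-fold, against 0.173% of all genes higher in clone 2. No member was lower in clone 2 by 2-fold, against 0.0788% of all genes. The log2 read ratios between the clones were 1.25 (0.91 to 1.61) and 1.27 (0.59 to 1.99). LGR4 itself was 1.89 times as high in clone 2 as in clone 1.

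Among the ligands that feed these receptors, the most abundant had the pattern of the MSX genes. Of 13 BMP ligand genes written down, 5 passed the filter. In both clones 2 of these were at least 2-fold lower, against 1.08% of all genes. BMP4, which drives mesoderm and ID and MSX expression in many settings, was at 67.39 FPKM in the control, 98.26 with R-spondin2, 9.65 in clone 1 and 22.47 in clone 2. BMP2, its nearest relative, was at 71.55, 95.77, 16.21 and 28.41 FPKM in the same order. Both had the library order of the MSX genes. The median over the 5 ligands was 0.15 with R-spondin2 and -0.20 in the mean of the clones, with BMP7 at -0.20 and BMP8A at 0.25 in the clones. These medians rest on few genes and moved with the filter: at 5 FPKM they were 0.42 and -1.69.

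Some genes on a list of BMP antagonists and binding proteins, which also holds the protease gene BMP1, were low in the clones as well. Of 12 past the filter, 3 were lower by at least 2-fold in both clones, against 1.08% of all genes. In the mean of the clones 8 were below the control and 4 above it. The medians were 0.13 with R-spondin2 and -0.38 in the clones, but -0.082 in the clones with no filter, and 0.26 and -1.16 with a filter of 5 FPKM. NOG, which encodes noggin, was at 9.52, 13.42, 0.71 and 2.4 FPKM in the control, R-spondin2, clone 1 and clone 2 libraries. BMPER was at 16.57, 19.52, 2.24 and 4.64 FPKM, and CER1, a secreted antagonist of BMP and nodal, at 2395, 3467, 599 and 1034 FPKM. FST, which encodes follistatin, was at -0.72 in the mean of the clones, and BMP1, a protease that cuts chordin, was at 0.52 with R-spondin2. CHRD, which encodes chordin, at 0.41, and CHRDL1, at 0.52 in the mean of the clones, were above both wild-type libraries in both clones, and these 2 were chosen after their values were seen.

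Of 16 other receptors and co-receptors past the filter, 1 was called, as lower in both clones, against 1.08% of all genes. BAMBI, a decoy receptor that is itself a BMP target, was at 76.26 FPKM in the control, 92.54 with R-spondin2, 26.34 in clone 1 and 35.59 in clone 2. The medians of the list were -0.02 with R-spondin2 and -0.14 in the clones, against 0.13 and -0.02 for the member receptors. Of the others in the clones, AMHR2 was at -0.97, ACVRL1 at -0.90 and ACVR2A, another type 2 receptor that BMPs use, at -0.55. AMHR2 and ACVRL1 were under 1 FPKM in both clones and passed the filter through the wild-type libraries. The place of AMHR2 and ACVRL1 below the control was thus largely set by the filter. The co-receptor gene RGMA had the largest R-spondin2 difference of the list, at -0.58. Like ID1 it was lower with R-spondin2 (9.76 against 15.12 FPKM), and it was higher in both clones (21.99 and 18.13 FPKM). ID1 in clone 2 was above the control only within counting error, at a log2 read ratio of 0.05 (-0.05 to 0.15).

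Of 19 SMAD genes and regulators past the filter, 1 was called, again lower in both clones, against 1.08% of all genes. SMAD6, an inhibitory SMAD that BMP induces as feedback, was at 20.38 FPKM in the control, 27.97 with R-spondin2, 4.89 in clone 1 and 7.93 in clone 2. The medians were 0.08 with R-spondin2 and -0.02 in the clones. SMAD3, which carries activin and nodal signals, was at -0.55 in the clones, SKIL, a repressor of SMADs, at 0.40, and SMAD9 at -0.36. ZNF423, a SMAD1 partner, was at -0.37 with R-spondin2.

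The closest set to compare the ID and MSX genes with was a list of 27 other BMP target genes, of which 16 passed the filter. In the clones, 15 of the 16 were below the control, with a median of -1.15, or -0.40 with no filter on low values. In both clones 8 were lower by at least 2-fold, against 1.08% of all genes. GATA2, GATA3 and PRDM6, named here for this reason, were under 1 FPKM in both clones and passed the filter through the wild-type libraries. Their place below the control was thus largely set by the filter. With R-spondin2, 15 of 16 were above the control, with a median of 0.20. Of all 12697 genes tested, 5894 were below the control in the mean of the clones and 6066 above it with R-spondin2. HAND1, a mesoderm and amnion bHLH gene, was at 70.05, 99.85, 8.59 and 19.76 FPKM in the control, R-spondin2, clone 1 and clone 2 libraries. TBX3 was at 13.12, 19.78, 2.07 and 4.01 FPKM, and GATA4 at 40.52, 53.22, 8.05 and 15.05 FPKM. CDX2, a posterior homeobox gene, was at -0.51 with R-spondin2 and so was the 1 target below the control there. Of the 16, 14 had the order R-spondin2, control, clone 2, clone 1, as MSX1 and MSX2 did, against 1 of 4 ID genes and 13.9% of all genes tested. SMAD6, SMAD7, SMAD9 and BAMBI stand in this list and in the lists above, and the list was written with earlier results of these data known.

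**Figure D4:**
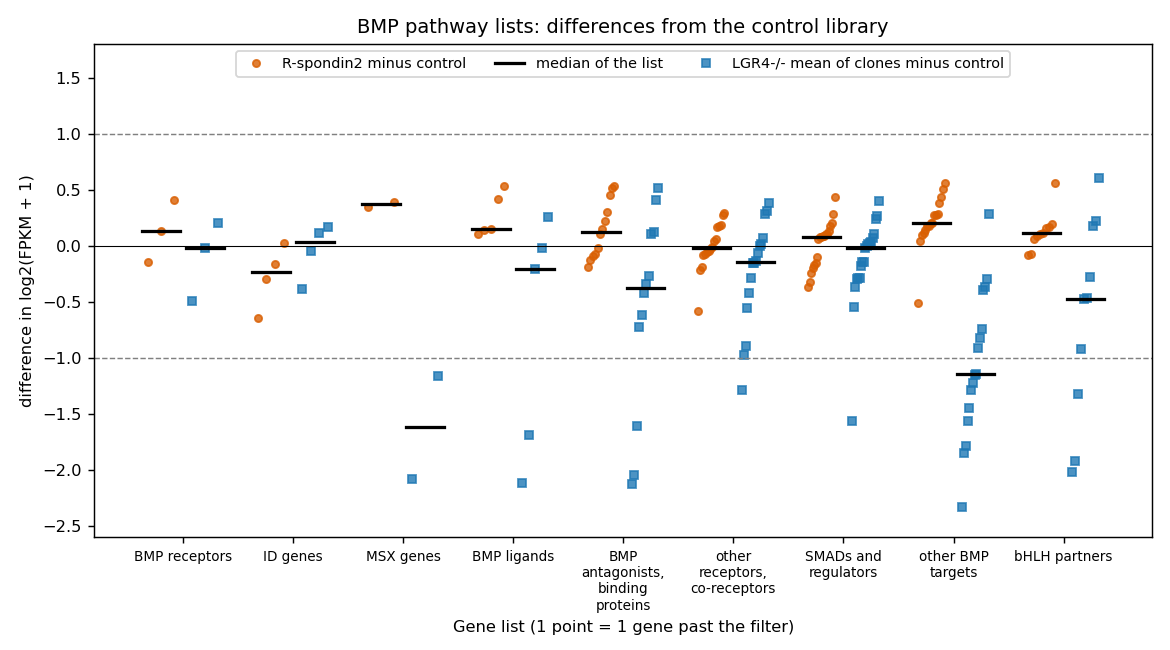
Difference in log2(FPKM + 1) from the control (vertical) for each gene past the filter in the receptor, ID and MSX groups and 6 further BMP lists (horizontal), for R-spondin2 (orange) and the mean of the clones (blue), with black bars at the list medians and dashed lines at 2-fold. The MSX genes and the other BMP targets have blue medians of -1.62 and -1.15, the ID genes and receptors have blue medians of 0.04 and -0.02, and the ID genes have the lowest orange median, at -0.23.

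The bHLH factors that ID proteins hold, or could hold, were read beside them. Of 21 genes written down 10 passed the filter, and 2 were lower by at least 2-fold in both clones, against 1.08% of all genes. These were MESP1 and MESP2, genes of nascent mesoderm. MESP1 was at 38.45 FPKM in the control, 57.26 with R-spondin2, 5.64 in clone 1 and 13.39 in clone 2. In the mean of the clones MSGN1 was at -1.32 and LYL1 at -0.92. LYL1 was under 1 FPKM in both clones and passed the filter through the wild-type libraries. Its place below the control was thus largely set by the filter. The medians were 0.11 with R-spondin2 and -0.47 in the clones, or -0.24 in the clones with no filter. TCF3, TCF12 and TCF4 were chosen after their values were seen because their proteins are the general partners of ID proteins. TCF3 and TCF12 were at 73.14 and 20.15 FPKM in the control. They were between 69.08 and 89.21 and between 20.15 and 23.48 FPKM over the 4 libraries. TCF4 was at 20.93 FPKM in the control, 23.57 with R-spondin2, 13.67 in clone 1 and 15.9 in clone 2. It was thus below both wild-type libraries in both clones, at -0.48 in their mean.

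Cell type markers differed between the libraries along with the MSX genes, and their part in the result was not tested. All 12 mesoderm and primitive streak markers were below both wild-type libraries in both clones, against 27.6% of all genes, and their sum was 1187 FPKM in the control, 1548 with R-spondin2, 428 in clone 1 and 660 in clone 2. HAND1, MESP1, APLNR and FOXF1 were the 4 called as lower in both clones, against 1.08% of all genes. All 9 pluripotency markers were above both wild-type libraries in both clones, against 34.4% of all genes, and their sum was 1610, 1306, 2635 and 2426 FPKM in the same order of libraries. SOX2 and PRDM14 were the 2 called as higher in both clones, against 0.236% of all genes. SOX2 was the 1 called as lower with R-spondin2, against 0.173%. The pluripotency sum thus stood lowest with R-spondin2 and highest in clone 1, as ID1 did. None of these markers was at 0 in all libraries, and HAND1 and MESP1 stand in lists above as well.

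Markers of other fates were at lower or mixed levels, and their sums are over all listed genes in the files, including those under the filter. For the calls in both clones given here, 1.08% of all genes were called as lower and 0.236% as higher. Of 6 endoderm markers past the filter, GATA6 was called as lower in both clones, against that 1.08%. The sum over 9 was 213 FPKM in the control, 261 with R-spondin2, 83.0 in clone 1 and 109 in clone 2. Of 4 amnion and trophoblast markers past the filter, CDX2 and GATA3 were called as lower and the other 2 were above the control in both clones. GATA3 was under 1 FPKM in both clones and passed the filter through the wild-type libraries. KRT7 was at 1.6 FPKM in the control, 0.39 with R-spondin2, 4.67 in clone 1 and 3.37 in clone 2. It was past 2-fold in clone 1 only, against 1.26% of all genes higher there. TFAP2C was at 0.28 in the mean of the clones. The sum over 12 was 14.44 FPKM in clone 1 and 13.73 in clone 2 against 18.59 in the control and 14 with R-spondin2. Of 3 neuroectoderm markers past the filter none was called, with sums over 9 between 121 and 175 FPKM, and PAX6 and SOX1 were under 1 FPKM in all libraries. Of 9 stromal markers past the filter LUM was called as lower, with sums over 11 of 581, 703, 431 and 526 FPKM in the control, R-spondin2, clone 1 and clone 2 libraries, and DCN and POSTN were under 1 FPKM in all. Of 6 blood and endothelial markers past the filter RUNX1 was called as lower, and 3 were below the control in the mean of the clones and 3 above it, with TEK at 0.49, HBZ at 0.35 and HBE1 at 0.21. Their sums over 10 lay between 24.51 and 28.07 FPKM, and PECAM1, CD34, CDH5 and GATA1 were under 1 FPKM in all libraries.

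BMPR1A, ID2 and MSX2 have processed copies elsewhere in the genome (BMPR1AP1 and BMPR1AP2, ID2B and MSX2P1 in RefSeq), and reads shared with these could have been split or lost, so their levels are the less certain ones. The NCBI gene identifiers in the files are 657 for BMPR1A, 658 for BMPR1B, 659 for BMPR2, 90 for ACVR1, 3397, 3398, 3399 and 3400 for ID1 to ID4, 4487 for MSX1 and 4488 for MSX2.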

How the data were processed

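RNA-seq of 4 libraries (control 1, R-spondin2 1, LGR4-/- 2 clones) was read from 1 table per library. The authors deposited FPKM to 2 decimals for 17894 genes with NCBI identifiers, already scaled for length and depth. The value columns of the LGR4-/- tables carry codes other than the clone numbers in the sample titles, so each table was assigned to its clone by the sample it was deposited under. The submitters' notes name BWA, Bowtie, RSEM and hg19, without roles or versions. No counts were used, so no count model was fitted.

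Differences were computed in log2(FPKM + 1), with a filter at a mean of 1 FPKM and calls at 2-fold. LGR4-/- was compared with the control by limma 3.58.1 (R 4.3.3) with a trend, with Benjamini-Hochberg adjustment over 12697 genes. It had 1 residual degree of freedom, and the lone control was assumed to vary like the clones. Nothing in the labels ties clones or libraries to separate cultures, so p-values measure only the spread between these libraries. Depth was estimated from genes with a single RefSeq transcript, 8068 in all, using GENCODE 29 lengths on GRCh38. Only low FPKM values on short transcripts were used, between 335 and 359 per library. At the estimated depth, 76.0% to 78.2% of these values came within 0.2 of a whole read, against 41.8% to 45.4% with shuffled lengths. Alternatives were a pseudocount of 0.1, no filter, a filter of 5 FPKM, rescaling by median ratios or to the same sum, a 1.5-fold threshold, leaving out each clone, and other limma fits. Coding-length intervals were added after seeing the data. The members, the gene lists and the motifs were chosen with earlier results of these data known. Named genes were all members, LGR4 and, of each further list, at most 4 genes with the largest difference in the clones and at most 2 with R-spondin2; exceptions are stated. Promoter sequences are RefSeq's on GRCh38.p14, and all 10 members matched. Python 3.11.15, numpy 2.4.6, pandas 2.3.3, scipy 1.17.1 and matplotlib 3.10.9 were used.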

Additional observations from a re-analysis of the deposited data

How the results depend on the processing

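No paired analysis was possible because the groups share only replicate number 1. With 1 control and 1 R-spondin2 library, the spread between cultures is unknown there, and without either clone limma had no residual degrees of freedom, so leaving out a clone gave values with no test. The median over members was 0.05 without clone 1 and -0.14 without clone 2, and the count of members called in both clones ranged from 1 to 2. No called value reversed under any of these alternatives. With the 1.5-fold threshold 1 member was called with R-spondin2 (ID1, lower), against 1.46% of all genes lower. In both clones 2 were called (MSX1 and MSX2, lower), against 3.09% lower, and 2 were called between the clones. Between the clones 2 were also called with a pseudocount of 0.1 and with same-sum rescaling. The share of all genes between the clones was not taken at these settings, so those counts have no scale beside them. The count of genes past an adjusted p of 0.05 by limma was 0, but 540 with a filter of 5 FPKM, 92 with median-ratio rescaling and 1862 with both wild-type libraries against both clones, where MSX1, MSX2, BMPR2 and LGR4 passed; the cause was not tested, except that the last fit uses 1 library more. The counts were 0 without a trend, with a pseudocount of 0.1 and with no filter.

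List medians in the mean of the clones depended on the filter. With no filter they were -0.13 for BMP ligands, -0.082 for antagonists and binding proteins, -0.10 for other receptors, -0.40 for other BMP targets and -0.24 for bHLH partners. With a filter of 5 FPKM they were -1.69, -1.16 and -0.10 for the first 3. With R-spondin2 a filter of 5 FPKM gave 0.42 for ligands and 0.26 for antagonists and binding proteins, and no filter gave 0.0012 for other receptors. A pseudocount of 0.1 gave -1.70 for other BMP targets, and 3 receptors and 4 bHLH partners called in both clones. Median-ratio rescaling gave -0.16 for other receptors and -0.045 for SMAD genes.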
